A study of Homo sapiens with 10 samples.

Results

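Collagen genes were followed across the RNA-seq libraries of RD cells, an established human line of rhabdomyosarcoma, a tumour with features of skeletal muscle. Members were all rows of the count table whose symbol reads COL, a number, A and a number, which is how collagen alpha chains are named. This rule found 43 of 23228 genes listed, and 34 of them had enough counts to be tested. They fall into 8 structural classes: 11 fibrillar genes, 10 FACIT genes, 6 of the basement membrane, 5 of the beaded filament, 4 transmembrane, 3 of short-chain networks, 2 multiplexins and 2 in a class of anchoring fibrils and others. By symbol the rule takes chains of every tissue, whether or not RD cells make them.

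RD cells grew in RPMI with serum and entered 5 groups of 2 libraries. A nonspecific siRNA, also labelled as a scrambled control, NRAS siRNA 1 or NRAS siRNA 2 was transfected at 10 nM with Lipofectamine RNAi MAX, and these cells were harvested after 48 hours. DMSO, the solvent, or 300 nM SCH772984, an inhibitor of the kinases ERK1 and ERK2, was given to the remaining groups, which were collected after 24 hours and not labelled as transfected. NRAS encodes a small GTPase that passes growth signals through RAF and MEK to ERK, and the RD line is known for an activating NRAS mutation, which was not checked in these libraries. The design compares loss of NRAS and block of ERK, each with its own control. All libraries come from this line, and the labels do not say that replicates were separate cultures, so the p-values reflect library-to-library spread only, and that spread may be technical.

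Collagens are secreted or membrane proteins in which 3 alpha chains wind into a triple helix. Fibrillar chains assemble into the banded fibres that give tissue its tensile strength, and FACIT collagens, the fibril-associated collagens with interrupted triple helices, sit on the surface of those fibres. Type IV chains form the sheet of the basement membrane, type VI chains form beaded filaments next to cells, type VIII chains form open lattices, and multiplexins and transmembrane collagens tie cells to matrix. Skeletal muscle is wrapped in types I, III, IV and VI, while types II, IX and XI are best known from cartilage.

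Libraries held 23224063 to 30768970 counts assigned to genes, with TMM scaling factors of 0.968 to 1.03. NRAS stood at 219.7 and 272 CPM (the count scaled to library size with TMM factors) with the nonspecific siRNA, at 52.4 and 52.2 CPM with siRNA 1 and at 51.0 and 48.0 CPM with siRNA 2. DUSP6, a phosphatase induced by ERK, stood at 292 and 265 CPM in DMSO and at 13.5 and 9.28 CPM with the inhibitor, and SPRY4, a feedback inhibitor of the pathway, at 326 and 300.0 and at 12.3 and 8.43 CPM. Of the markers that define the muscle lineage, MYF5 had 0 counts in each library, MYOD1 0 to 5, MYOG 0 to 3 and PAX7 1 to 6, while DES had 520 to 928 and PAX3 258 to 393, so the labelled muscle tumour identity rests here on DES and PAX3 alone. Expression of MYOD1 and MYOG is usual for RD cells, so these counts go against the label, and the identity of the line was not tested; RD below means the cells so labelled. Blood marker PTPRC had at most 5 counts in a library, while CD68 of the same list had 50 to 127. The fibroblast genes PDGFRA, THY1 and FAP were measured, while DPT, PI16 and CD34 of that list had at most 5 counts.

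Collagens made up 1.84 ± 0.136% of gene counts in DMSO libraries and 3.06 ± 0.0319% with the ERK inhibitor (SD, n = 2 each). The share was 1.96 ± 0.0573% with the nonspecific siRNA, 2.10 ± 0.192% with siRNA 1 and 2.09 ± 0.0661% with siRNA 2 (SD, n = 2 each). Both inhibitor libraries lay above the other 8. By class, FACIT genes held 5.25 and 4.49% of collagen counts in DMSO and 14.7 and 15.5% with the inhibitor, and basement membrane genes held 11.4 and 12.2% and then 5.47 and 5.56%. Beaded filament genes held 19.2 and 21.4% and then 12.6 and 10.6%. The makeup of the collagen RNA thus shifted with the inhibitor, with no overlap for these classes. A share of collagen counts also falls as the collagen total rises. Of all gene counts, basement membrane genes held 0.221 and 0.212% in DMSO and 0.169 and 0.169% with the inhibitor. Beaded filament genes held 0.371 and 0.372% and then 0.388 and 0.322% of all gene counts. An exact permutation test of 2 against 2 libraries cannot give a p below 0.333, so no test of the share was made. In bulk RNA a change in the number of cells that make a transcript and a change in RNA per cell cannot be told apart, here and below.

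A few chains carried most of this RNA. On the scale of CPM per kilobase of exon, COL3A1, the chain of type III collagen, stood at 1263 and 1083 in the DMSO libraries. COL5A2 followed at 360.1 and 346, COL6A3 at 295 and 306 and COL1A1 at 195 and 174. These ranges did not overlap from one to the next. COL3A1 alone held 33.1 to 44.2% of all collagen counts in a library. Going down the DMSO order of tested members, 17 of 33 neighbouring pairs had ranges that overlapped, so the order is firm mainly at the top and where gaps are wide.

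The pair of type I chains was split. COL1A1 had 428217 counts over the 10 libraries and COL1A2, whose chain joins that of COL1A1 in the type I triple helix of skin, tendon and bone, had 93. COL1A2 held 3 to 15 counts in a library and 0.0217% of the counts of both genes, with an exact 95% Clopper-Pearson interval of 0.0175 to 0.0266% that covers counting error only. This stood out in each group: per length, COL1A2 was at 0.000108 to 0.000580 of COL1A1. With the inhibitor the COL1A2 log2 fold change was 0.33 (SE 0.60) (edgeR adjusted p = 0.717), too few counts for a difference of that size to be detected.

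**Figure D1:**
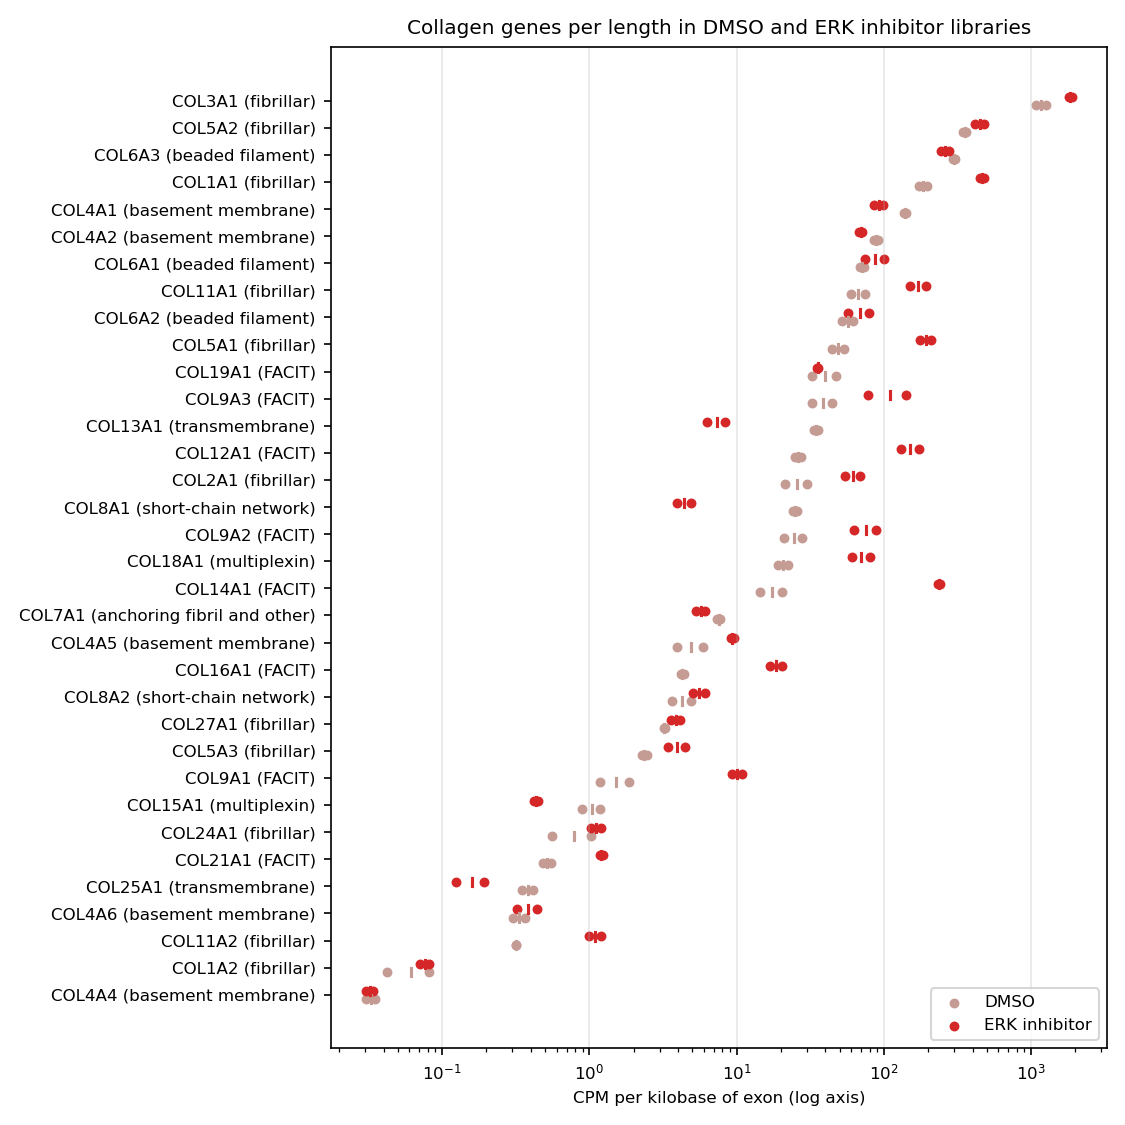
Level of each tested collagen gene in CPM per kilobase of exon (log axis), with 1 point per library and a short bar at the mean of 2 libraries for DMSO and ERK inhibitor. COL3A1 leads in both groups, COL14A1 moves from rank 19 to rank 5 among the 43 members, and COL8A1 and COL13A1 move the other way.

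Members that were not tested were COL4A3 of the basement membrane, COL6A5 and COL6A6 of the beaded filament, COL10A1 of growth-plate cartilage, COL17A1 and COL23A1 of the transmembrane class, the FACIT genes COL20A1 and COL22A1, and COL28A1. They had at most 10 counts in any library and 1 to 55 over all 10. For scale, 3 counts, the limit that a count of 0 allows, correspond to 0.0975 to 0.129 CPM of unscaled gene counts. Among the 34 tested members, 32 would pass the count filter in every group, and COL1A2 and COL4A4 would not.

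The ERK inhibitor raised most of the collagen genes that it changed. Against DMSO, 16 of 34 tested members rose and 5 fell, by the quasi-likelihood test of edgeR at a Benjamini-Hochberg adjusted p under 0.05 over 14761 genes. Over all tested genes 13.2% rose and 14.8% fell, so the count of 5 falls among members was near the share of all genes. The balance over all genes turned with scaling. Higher calls were 47.2% of all calls with TMM and 56.2% with upper-quartile scaling, under which 16 members rose and 4 fell. The median log2 fold change was 0.44 over the tested members and 0.00070 over all genes. By class, 7 of 11 tested fibrillar and 7 of 8 tested FACIT genes rose and none of either fell, and the class medians were 0.74 and 1.87. In the 21 called genes the 2 inhibitor libraries lay on 1 side of both DMSO libraries. Of these calls, 16 were kept under each of 16 alternative settings, and those of COL21A1, COL25A1, COL4A1, COL4A2 and COL5A2 were not.

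**Figure D2:**
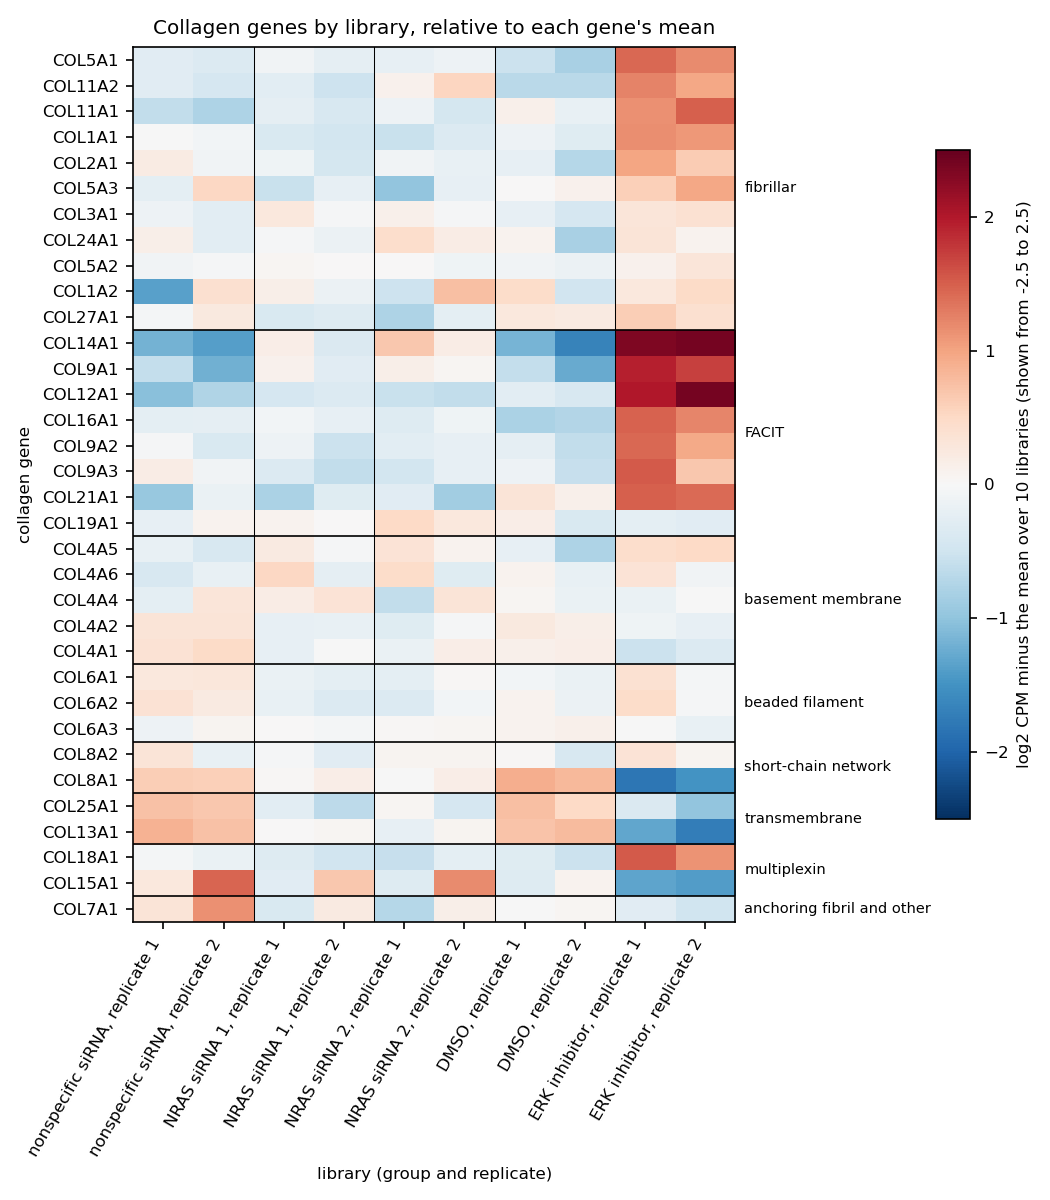
Colour shows log2 CPM of each tested collagen gene minus its mean over the 10 libraries, clipped at -2.5 and 2.5, with genes in rows grouped by class and libraries in columns. Both inhibitor columns are red for the 7 fibrillar and 7 FACIT genes that were called higher and blue for COL8A1 and COL13A1; members that were not called share these colours, such as COL5A3 and COL27A1 in red and COL15A1 in blue, while COL7A1 and COL15A1 differ between replicates of the siRNA groups.

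Among fibrillar genes, the regulatory chain COL5A1, which helps to start and limit fibril growth, rose most. It was measured at 460.0 and 377 CPM in DMSO and at 1784 and 1510.2 CPM with the inhibitor, a log2 fold change of 1.98 (SE 0.12) with edgeR adjusted p = 4.94e-06. Both inhibitor libraries stood more than 3 times above the higher DMSO library. COL1A1 went from 1312 and 1168 to 3231 and 3037 CPM, a log2 fold change of 1.34 (SE 0.10) (edgeR adjusted p = 1.91e-05). COL3A1, the most abundant chain, went from 7001 and 6002 to 9973 and 10449 CPM at 0.65 (SE 0.12). Its rise was smaller in ratio, with libraries apart. COL5A2, partner of COL5A1 in type V collagen, moved from 2549.5 and 2449 to 2935 and 3383 CPM, 0.34 (SE 0.09), and this call was lost without DMSO replicate 2 (edgeR adjusted p = 0.0696), without inhibitor replicate 2 (0.122) and when only both groups compared were fitted (0.0614).

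The fibrillar chains of cartilage rose as well. COL11A1, the main type XI chain here, was at 622 and 501 CPM in DMSO and 1259 and 1619 CPM with the inhibitor, a log2 fold change of 1.36 (SE 0.16). COL11A2 stood far lower, at 2.11 and 2.13 and then 7.95 and 6.58 CPM, 1.77 (SE 0.22). COL2A1, the type II chain, was at 154 and 108 and then 349.6 and 275 CPM, 1.25 (SE 0.19). In each of these the groups were apart, and the edgeR adjusted p values were 0.000253, 0.000345 and 0.00117. Not called were COL5A3 at 0.74 (SE 0.29), COL24A1 at 0.50 (SE 0.27) and COL27A1 at 0.26 (SE 0.17). Of the cartilage markers, ACAN, HAPLN1 and LECT1 had at most 3 counts in a library, MATN3 was at -0.16 (SE 0.14) and not called, and the 4 cartilage markers summed to 12.7 to 12.9 CPM in DMSO and 10.0 to 12.8 CPM with the inhibitor. Of the bone markers 2 of 3 tested rose, beside 13.2% of all genes, in a list too short to read against that share. The 6 bone genes summed to 24.9 to 30.0 CPM in DMSO and 71.6 to 72.1 CPM with the inhibitor. IBSP, a mineral-binding matrix protein, had 2 and 4 counts in DMSO and 589 and 623 with the inhibitor. It had 2 to 10 counts in the libraries outside the inhibitor group and passed the count filter through that group alone. Its call is thus no separate support for a rise, and the sum includes it. ALPL, a phosphatase of bone cells, changed by 1.37 (SE 0.13), and RUNX2 was at -0.36 (SE 0.20) and not called. The part of these bone genes in the collagen values was not tested.

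FACIT genes gave the greatest rises. COL14A1, which binds fibrils and is abundant where they mature, went from 159 and 111 CPM in DMSO to 1805 and 1880.3 CPM with the inhibitor. The log2 fold change was 3.77 (SE 0.24), 13.7-fold, with edgeR adjusted p = 6.45e-06. COL12A1, a chain of tendon, ligament and muscle matrix, went from 330.4 and 301 to 1583 and 2085 CPM. Its log2 fold change was 2.54 (SE 0.14), 5.81-fold, with edgeR adjusted p = 3.93e-06. By their means, 237 and 151 CPM per kilobase, these were the highest FACIT genes with the inhibitor. COL16A1, found at cell-matrix contacts and in small fibrils, went from 25.8 and 26.8 to 124 and 104 CPM, 2.11 (SE 0.12).

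All 3 chains of type IX collagen, which coat type II fibrils, rose together. COL9A1 stood at 9.77 and 6.19 CPM in DMSO and at 56.8 and 48.5 CPM with the inhibitor, 2.73 (SE 0.25). COL9A2 stood at 80.1 and 60.4 and at 252 and 179.6 CPM, 1.62 (SE 0.21). COL9A3 stood at 111 and 81.2 and at 355 and 194 CPM, 1.51 (SE 0.26). Groups were apart for each chain, with the inhibitor replicates of COL9A3 differing most from each other, and the adjusted p values from edgeR were 5.71e-05, 0.000447 and 0.00220. COL21A1, a low FACIT gene, went from 2.51 and 2.20 to 5.63 and 5.32 CPM, 1.22 (SE 0.28), and its call was lost without DMSO replicate 2 (edgeR adjusted p = 0.0730) and without inhibitor replicate 1 (0.0570). COL19A1, a neighbour of COL9A1 on chromosome 6 in RefSeq's gene order, did not go with it: it was at 318 and 219 CPM in DMSO and 241 and 234 CPM with the inhibitor, -0.18 (SE 0.16), with overlapping libraries.

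The basement membrane class was divided. COL4A1, one of the major chains of every basement membrane, stood at 1025 and 1055 CPM in DMSO and at 648 and 747 CPM with the inhibitor, a log2 fold change of -0.58 (SE 0.12) (edgeR adjusted p = 0.00681). COL4A2, its partner, stood at 1181 and 1105 and at 928 and 873 CPM, -0.34 (SE 0.10) (edgeR adjusted p = 0.0267). Both fell with libraries apart, but by less than most FACIT and fibrillar genes rose. COL4A5, a chain of the kidney and muscle basement membrane, rose from 45.8 and 30.8 to 71.1 and 74.6 CPM, 0.93 (SE 0.18). COL4A6 at 0.18 (SE 0.33) and COL4A4 at -0.01 (SE 0.46) were not called. The call of COL4A1 was lost without DMSO replicate 2 (edgeR adjusted p = 0.0508) and without inhibitor replicate 1 (0.0718). That of COL4A2 was lost without any 1 of the 4 libraries of the comparison (adjusted p from 0.0801 to 0.125) and under upper-quartile scaling (0.0502).

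COL4A1 and COL4A2 lie next to each other on chromosome 13 and are read in opposite directions from a common start region, so their promoters are shown as the place where the pair that moved together meets. RefSeq's promoter window of COL4A1 (GRCh38.p14, chr13:110307108-110307407, minus strand) runs from 250 bases before to 50 after the start. Of its 300 bases, the 226 in capitals also belong to the window of COL4A2 (chr13:110307034-110307333, plus strand).
COL4A1: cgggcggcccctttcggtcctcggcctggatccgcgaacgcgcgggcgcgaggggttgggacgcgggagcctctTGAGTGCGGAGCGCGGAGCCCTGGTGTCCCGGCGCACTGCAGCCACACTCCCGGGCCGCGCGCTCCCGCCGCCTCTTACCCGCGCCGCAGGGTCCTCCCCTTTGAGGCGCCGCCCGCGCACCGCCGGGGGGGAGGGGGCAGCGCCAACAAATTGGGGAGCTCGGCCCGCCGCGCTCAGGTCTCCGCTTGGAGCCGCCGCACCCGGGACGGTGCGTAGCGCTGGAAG
The window held 1 match to CCAAT and 2 to GGGCGG over both strands. COL3A1 with COL5A2 on chromosome 2, COL6A1 with COL6A2 on chromosome 21 and COL4A6 with COL4A5 on chromosome X are further tested neighbours in RefSeq's order, and in the inhibitor comparison COL3A1 and COL5A2 were both called in the same direction.

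Promoter windows from the RefSeq table are also shown for COL5A1 and COL12A1, which rose among the fibrillar and FACIT genes with the inhibitor, and for COL13A1, which fell, to show the starts of genes called in opposite directions. Capitals mark GGGCGG boxes, read here as CCGCCC on the printed strand, in COL5A1 (chr9:134641553-134641852, plus strand) and COL12A1 (chr6:75206004-75206303, minus strand), and TATAAA in COL13A1 (chr10:69801656-69801955, plus strand), on GRCh38.p14.
COL5A1: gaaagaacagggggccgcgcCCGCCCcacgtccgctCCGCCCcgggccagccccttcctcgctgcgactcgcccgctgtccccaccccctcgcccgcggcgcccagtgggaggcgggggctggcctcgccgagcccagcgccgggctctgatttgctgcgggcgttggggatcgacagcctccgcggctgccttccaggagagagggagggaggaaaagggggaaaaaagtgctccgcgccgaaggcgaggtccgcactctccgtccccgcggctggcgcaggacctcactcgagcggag
COL12A1: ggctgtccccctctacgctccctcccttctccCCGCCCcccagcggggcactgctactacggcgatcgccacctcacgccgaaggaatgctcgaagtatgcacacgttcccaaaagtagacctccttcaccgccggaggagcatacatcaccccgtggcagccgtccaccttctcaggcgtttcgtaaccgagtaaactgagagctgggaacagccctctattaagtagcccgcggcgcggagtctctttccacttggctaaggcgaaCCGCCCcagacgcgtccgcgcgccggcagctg
COL13A1: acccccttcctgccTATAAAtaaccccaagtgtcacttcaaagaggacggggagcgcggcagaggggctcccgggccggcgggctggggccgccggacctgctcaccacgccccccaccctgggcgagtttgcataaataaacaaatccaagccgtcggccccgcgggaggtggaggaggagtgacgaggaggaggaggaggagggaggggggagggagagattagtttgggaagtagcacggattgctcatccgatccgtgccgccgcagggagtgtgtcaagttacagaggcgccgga
Of the 43 member genes, 31 matched the table with 43 windows of 300 bases, some of which share bases. Without a window were COL1A1, COL1A2, COL2A1, COL3A1, COL5A2, COL6A1, COL6A5, COL8A1, COL9A3, COL14A1, COL20A1 and COL22A1. The shares below thus leave out several of the most abundant and most changed chains, and they include untested members such as COL10A1 and COL17A1. TATAAA was in 18.6% of collagen windows and 11.5% of all 35116 windows, CCAAT in 32.6% and 34.6%, and GGGCGG in 55.8% and 45.0%. TGANTCA, the letters that AP-1 factors bind, was in 2.33% and 7.71%. CCGGAA, a core that ETS factors bind, was in 0 of 43 and in 17.2% of all windows. Both strands were searched, and matches of different motifs were counted separately where they overlapped; a match describes letters and nothing more.

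Beaded filament genes were not called with the inhibitor. COL6A1 was at 0.30 (SE 0.14), COL6A2 at 0.27 (SE 0.16) and COL6A3 at -0.20 (SE 0.09). Transmembrane genes both fell. COL13A1, known from the neuromuscular junction and cell adhesion sites, went from 109 and 116 to 27.2 and 20.3 CPM, a log2 fold change of -2.25 (SE 0.15) or a 4.76-fold fall (edgeR adjusted p = 7.92e-06). COL25A1, which motor axons need to enter muscle, went from 3.52 and 2.96 to 1.64 and 1.06 CPM, -1.27 (SE 0.28), and its call was lost without inhibitor replicate 2 (edgeR adjusted p = 0.0614). In the short-chain class COL8A1 fell furthest of all members, from 147 and 137 to 22.4 and 27.8 CPM, -2.5 (SE 0.12) or 5.65-fold (edgeR adjusted p = 1.91e-06), while COL8A2 was at 0.38 (SE 0.20) and not called. Of the multiplexins, COL18A1, whose end fragment is endostatin, rose from 153 and 129.6 to 547 and 412 CPM, 1.76 (SE 0.16) (edgeR adjusted p = 5.41e-05). COL15A1, its relative of the muscle basement membrane zone, was at -1.26 (SE 0.56) with a wide error, and COL7A1, the anchoring fibril chain, at -0.40 (SE 0.31); neither was called.

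Fewer collagen genes were called with the NRAS siRNAs than with the ERK inhibitor, as over all genes, where 1174 and 4128 were called. Without the filter on low counts, 17 and 23 members were called, beside 1765 and 4298 of all genes. For the mean of both siRNAs against the nonspecific siRNA, 2 of 34 tested members rose (2.97% of all genes) and 7 fell (4.99% of all genes). The median log2 fold change was -0.06 over the tested members and -0.0054 over all genes. COL14A1 stood at 156 and 137 CPM in the controls, at 401 and 277 with siRNA 1 and at 565 and 405 with siRNA 2. All 4 NRAS siRNA libraries lay above both controls, with a log2 fold change of 1.47 (SE 0.20) (edgeR adjusted p = 0.00405), the sole call kept under each of the 16 alternatives. COL9A1, at 9.73 and 6.43 in controls and at 15.8 and 12.1 and 16.3 and 15.4 CPM with siRNA 1 and 2, rose by 0.88 (SE 0.22) (edgeR adjusted p = 0.0389). Both siRNAs were compared with the same 2 nonspecific siRNA libraries, so their values are not independent of each other.

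The 7 falls with NRAS siRNAs ranged from -1.0 for COL25A1 to -0.38 for COL1A1 on the log2 scale. COL25A1 was at 3.48 and 3.37 CPM in controls, 1.76 and 1.33 with siRNA 1 and 2.19 and 1.57 with siRNA 2, -1.0 for the mean. COL13A1 was at 122 and 112, 67.8 and 68.9 and 58.4 and 70.3 CPM in the same order, -0.82 (SE 0.12). COL8A1 was at 120.0 and 118, 79.6 and 86.9 and 77.7 and 86.8 CPM, -0.52 (SE 0.10). These 3 genes fell with the inhibitor too. COL4A1 stood at 1206 and 1304, 813 and 935 and 837 and 1050.0 CPM and changed by -0.47 (SE 0.10). COL4A2 stood at 1262 and 1258, 870.1 and 884 and 809 and 986 CPM and changed by -0.51 (SE 0.08). Both major type IV chains thus fell under both treatments. COL1A1 was lower, at 1426 and 1367, 1112 and 1050.4 and 973 and 1143 CPM, -0.38 (SE 0.08), the opposite direction to the inhibitor. COL6A2, a type VI chain, was at 328 and 300.4, 225 and 202 and 202 and 244 CPM, -0.53 (SE 0.13). The 9 called genes had NRAS siRNA libraries on 1 side of both controls.

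Single libraries decided many of these calls. Of the 9 calls for the mean of both siRNAs, 1 remained without nonspecific siRNA replicate 1, 3 without nonspecific siRNA replicate 2, 3 without siRNA 1 replicate 1 and 4 without siRNA 2 replicate 1. COL13A1 and COL4A2 lost their calls only without nonspecific siRNA replicate 1, at edgeR adjusted p = 0.0640 and 0.0739. COL1A1 without that library was at -0.33 (edgeR adjusted p = 0.142) and COL25A1 at -0.96 (0.134). COL9A1 without nonspecific siRNA replicate 2 was at 0.61 (edgeR adjusted p = 0.173). COL4A1, COL6A2 and COL8A1 reached edgeR adjusted p values of at most 0.115, 0.196 and 0.0909 over the alternatives. None of the 9 changed direction.

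Taken singly, siRNA 1 called 1 member higher (0.894% of all genes) and 2 lower (1.17%), and siRNA 2 called 2 higher (2.59%) and 4 lower (3.84%). COL14A1 at 1.21 (SE 0.22) and 1.72 (SE 0.22), COL13A1 at -0.78 (SE 0.14) and -0.86 (SE 0.14) and COL4A2 at -0.52 (SE 0.10) and -0.49 (SE 0.10) passed with siRNA 1 and 2 in turn. siRNA 2 alone called COL9A1 at 0.98 (SE 0.24), COL8A1 at -0.53 (SE 0.12) and COL1A1 at -0.40 (SE 0.10), where siRNA 1 gave 0.79, -0.51 and -0.37. The direct comparison of siRNA 1 with siRNA 2 called 0 members (background 0.23% higher and 0.196% lower), also with DESeq2 (background 1.16%). At an unadjusted p under 0.05 edgeR held 2 of 34, beside 5.97% of all genes, a count near that background: COL11A2 at -0.72 (SE 0.21) and COL14A1 at -0.52 (SE 0.21), both higher with siRNA 2. The count of 3 for siRNA 1 became 0 without nonspecific siRNA replicate 1 or 2 or siRNA 1 replicate 1, and 1 without siRNA 1 replicate 2. The count of 6 for siRNA 2 became 1 without nonspecific siRNA replicate 1 or siRNA 2 replicate 1, and 2 without nonspecific siRNA replicate 2.

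Both responses were compared directly through the difference of log2 fold changes, that of the mean siRNA effect less that of the inhibitor, each against its own controls. Of 34 tested members, 14 were called lower (4.57% of all genes), meaning a higher response to the inhibitor, and 2 called higher (2.73%). COL12A1 differed by -2.13 (SE 0.18), COL16A1 by -2.05 (SE 0.16), COL5A1 by -1.83 (SE 0.15) and COL18A1 by -2.06 (SE 0.20). With the siRNAs these 4 genes were not called, at 0.41, 0.06, 0.15 and -0.30. COL1A1, which rose with the inhibitor and fell with the siRNAs, differed by -1.72 (SE 0.13) (edgeR adjusted p = 0.000143). COL14A1 rose under both and still differed by -2.31 (SE 0.28). COL8A1 at 1.98 (SE 0.16) and COL13A1 at 1.43 (SE 0.19) fell under both treatments and further with the inhibitor. For COL4A1 at 0.11 (SE 0.16), COL4A2 at -0.16 (SE 0.13) and COL25A1 at 0.27 (SE 0.36) no difference was detected, and the error of COL25A1 leaves room for a sizeable one.

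**Figure D3:**
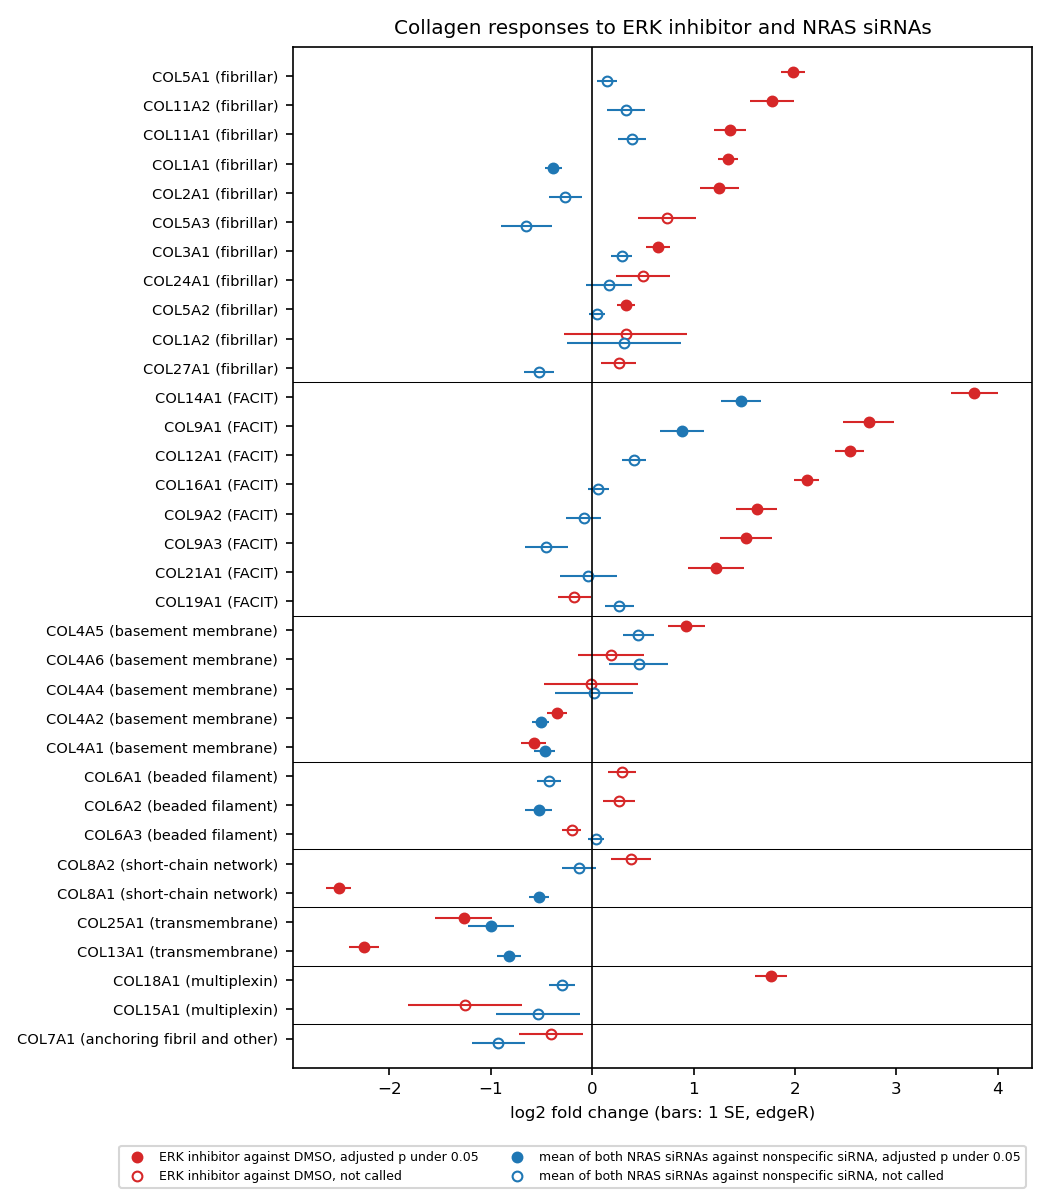
Log2 fold change of each tested collagen gene with 1 SE, for the ERK inhibitor against DMSO (red) and the mean of both NRAS siRNAs against the nonspecific siRNA (blue); filled points have an adjusted p under 0.05. Red points of 7 FACIT and 7 fibrillar genes lie filled to the right, COL14A1 and COL9A1 are filled in both colours on the right, and COL1A1 is filled on opposite sides.

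The controls themselves differ in transfection and in harvest time, which cannot be told apart. The nonspecific siRNA against DMSO called 0 members in edgeR (background 0.271% higher and 0.108% lower) and 3 in DESeq2, where 3.01% of all genes with an adjusted p were called. At an unadjusted p under 0.05 edgeR held 10 of the 34, beside 11.6% of all genes, among them COL11A1 at -0.66 (SE 0.15), COL12A1 at -0.57 (SE 0.14) and COL16A1 at 0.53 (SE 0.12). COL11A1 stood at 375 and 336 CPM with the nonspecific siRNA and 622 and 501 in DMSO, and COL12A1 at 191 and 235 and 330.4 and 301. The libraries of the 2 controls did not overlap for these genes.

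Chains that share a trimer did not always move in step. The ratio of COL5A1 to COL5A2, both in CPM per kilobase, was 0.150 and 0.128 in DMSO and 0.504 and 0.370 with the inhibitor. That of COL8A1 to COL8A2 was 5.25 and 6.58 in DMSO and 0.643 and 0.965 with the inhibitor. The first ratio rose and the second fell, with no overlap between the libraries of either pair of groups. COL9A1 to COL9A2 stood at 0.0666 and 0.0559 in DMSO and at 0.123 and 0.148 with the inhibitor. For the same ratio the nonspecific siRNA libraries gave 0.0585 and 0.0489, siRNA 1 gave 0.102 and 0.103 and siRNA 2 gave 0.116 and 0.104, so it was higher under both treatments. COL4A1 to COL4A2 was lower by a smaller ratio, from 1.5 and 1.65 in DMSO to 1.20 and 1.47 with the inhibitor. That this ratio lies above 1 depends on the exon lengths used, 7525 bases for COL4A1 and 12971 for COL4A2, over all transcripts together. In counts COL4A2 was the higher in DMSO, at 26834 and 29108 against 23282 and 27794. COL6A1 to COL6A2 overlapped between DMSO and inhibitor, at 1.19 and 1.32 and 1.26 and 1.30. COL6A1 to COL6A3 did not, at 0.249 and 0.225 in DMSO and 0.362 and 0.306 with the inhibitor. In the siRNA arm that ratio was lower, from 0.365 and 0.325 with the nonspecific siRNA to 0.245 and 0.244 with siRNA 1. With siRNA 2 it was 0.230 and 0.276. With 2 libraries a group no exact test of a ratio can go below p = 0.333, and these values are given as a description.

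**Figure D4:**
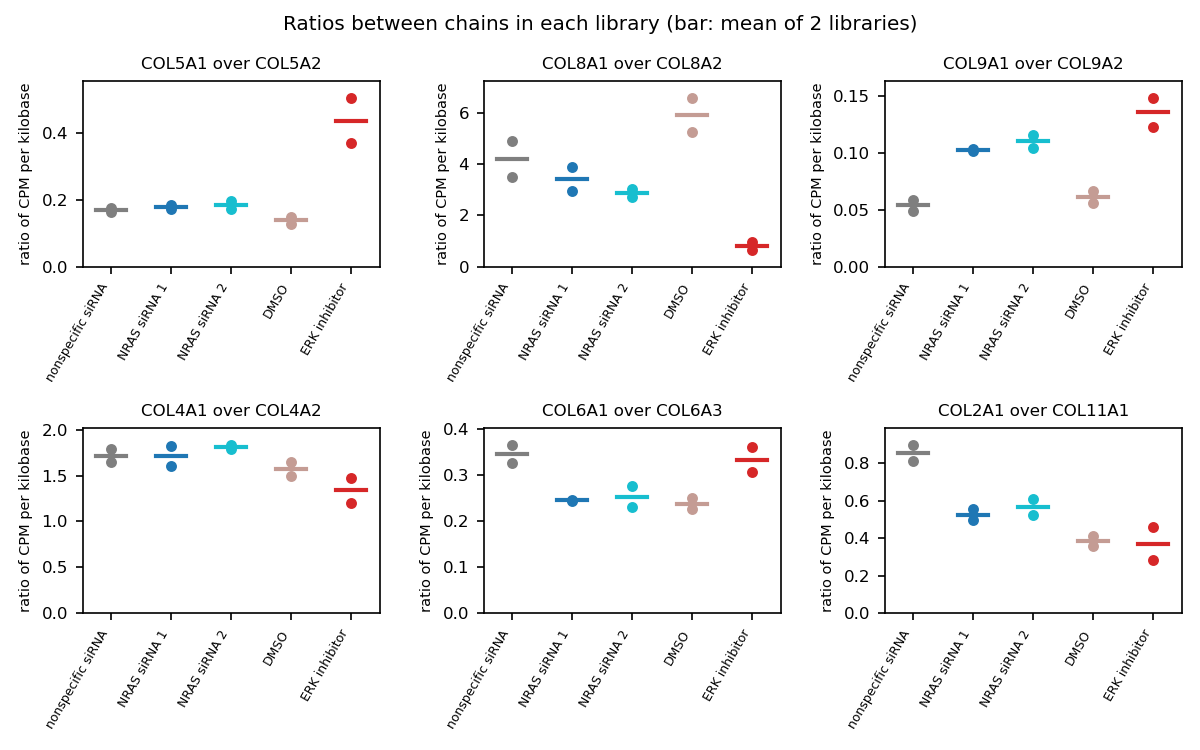
Ratio of CPM per kilobase between 2 chains in each library, with 1 point per library and a bar at the mean, for 6 pairs of chains on axes that start at 0. COL5A1 over COL5A2 is highest and COL8A1 over COL8A2 lowest in the inhibitor libraries, and COL9A1 over COL9A2 is higher with NRAS siRNAs and with the inhibitor than in either control.

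Some members differed widely between replicates of the siRNA arm. COL7A1 stood at 85.7 and 152 CPM with the nonspecific siRNA, 52.9 and 80.1 with siRNA 1 and 41.9 and 76.3 with siRNA 2. COL15A1 stood at 7.32 and 16.7, 5.07 and 9.77 and 4.92 and 13.8 CPM in the same groups. Replicate 2 was the higher in each of these 3 groups for both genes, and likewise for COL5A3 at 11.8 and 20.1, 9.50 and 12.1 and 7.04 and 12.2 CPM. In the DMSO libraries COL7A1 was at 68.7 and 71.5 CPM, close together. Averaged over the siRNAs, COL7A1 at -0.92 (SE 0.26) with edgeR adjusted p = 0.0566 was not called although its size exceeds that of 7 genes that were.

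Genes that make, bind, break down or switch on collagen were read in 5 lists, whose counts are to be set beside the shares of all genes, 13.2% higher and 14.8% lower with the inhibitor and 2.97% higher and 4.99% lower with the mean of both siRNAs. Of 32 genes for processing and crosslinking, 7 rose and 4 fell with the inhibitor, with a median log2 fold change of 0.09, and the falls were near the share of all genes. TLL1, a protease that trims procollagens, changed by 3.03 (SE 0.27), GLT25D2, a collagen galactosyltransferase, by 1.99 (SE 0.16), ADAMTS2, which removes amino-terminal propeptides, by 1.32 (SE 0.14), and LOXL1, a crosslinking oxidase, by 1.15 (SE 0.15). PLOD3, a lysyl hydroxylase and glycosyltransferase, fell by 0.92 on the log2 scale (SE 0.15). P4HA1 at 0.09 (SE 0.10) and P4HB at 0.09 (SE 0.08), subunits of prolyl hydroxylase, the chaperone SERPINH1 at -0.17 (SE 0.09) and the oxidase LOX at -0.19 (SE 0.15) were not called. These genes were picked after their values were seen and do not stand for the list. FKBP10 had 4076 and 4235 counts in DMSO and 6696 and 6836 with the inhibitor, and BMP1 had 2124 and 2564 and then 3558 and 4187. LOXL3 went the other way, from 4409 and 4845 to 2901 and 2897 counts. With the mean of both siRNAs 1 of the 32 rose, TLL1 at 0.97 (SE 0.26), and 4 fell: LOXL3 at -0.72 (SE 0.09), PLOD3 at -0.70 (SE 0.13), GLT25D1 at -0.41 (SE 0.10) and LEPREL2, a prolyl hydroxylase, at -0.39 (SE 0.09).

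Of 9 tested receptors 3 rose and 2 fell with the inhibitor (median 0.51), a list too short to read against the shares of all genes. DDR1, a receptor kinase for collagen, changed by 0.89 (SE 0.11), MRC2, which takes up collagen, by 0.79 (SE 0.19) and the integrin subunit ITGA1 by 0.64 (SE 0.20), whereas ITGA2 changed by -1.34 (SE 0.20) and ITGB1 by -0.30 (SE 0.09). The siRNAs raised DDR2 by 0.54 (SE 0.12) and lowered ITGA11, at -1.0 (SE 0.24). Of 10 tested genes of collagen breakdown 2 rose and 2 fell with the inhibitor (median -0.02), each near the shares of all genes. MMP2, a gelatinase, changed by 0.94 (SE 0.11) and TIMP2, an inhibitor of such proteases, by 0.45 (SE 0.08), while the collagenase MMP1 changed by -2.09 (SE 0.34) and TIMP1 by -0.82 (SE 0.12). TIMP1 fell with the siRNAs too, at -0.59 (SE 0.10), the sole call of that list.

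Of 9 tested fibril partners 4 rose and 1 fell with the inhibitor (median 0.49). DCN, a proteoglycan that coats fibrils, had 2 and 0 counts in DMSO and 140 and 179 with the inhibitor, a ratio of summed counts, scaled to library totals, of 146 with an exact 95% counting interval of 40.1 to 1211. It had 0 to 12 counts outside the inhibitor group and passed the count filter only through the inhibitor libraries. Its place among the 4 is thus no separate support for a rise of the list. LUM, a related proteoglycan, stood at 2.64 and 1.78 CPM and then 17.9 and 26.0 CPM, 3.32 (SE 0.27). COMP changed by 1.75 (SE 0.38) and SPARC, which binds collagen, by 0.49 (SE 0.09), while TNC, tenascin C, changed by -0.81 (SE 0.15) and with the siRNAs by -0.56 (SE 0.13). Of 12 tested transcription factors known to act on collagen genes 2 rose and 2 fell with the inhibitor (median -0.06), again near those shares. SOX9, the activator of cartilage collagens, fell by 0.91 on the log2 scale (SE 0.10), with 167 and 164 CPM in DMSO and 93.6 and 82.2 with the inhibitor, while SOX6, its partner, changed by 1.56 (SE 0.23), TWIST1 by 0.95 (SE 0.25) and SP1 by -0.27 (SE 0.08). SOX9 also fell with the siRNAs, at -0.69 (SE 0.09), the sole factor called there. Of the calls named here for the inhibitor, those of MRC2, ITGA1, ITGB1, COMP, TWIST1 and SP1 were lost when 1 library or another was left out. Of the 10 siRNA calls in these lists, 8 were lost under 1 or more of the 16 alternatives: TLL1 under 9, ITGA11 and GLT25D1 under 8 each, LEPREL2 under 7, TNC under 6, DDR2 under 4, PLOD3 under 2 and TIMP1 under 1. All 8 lost the call without nonspecific siRNA replicate 1, with edgeR adjusted p values over the alternatives of up to 0.193 for LEPREL2, while LOXL3 and SOX9 kept theirs under each alternative.

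**Figure D5:**
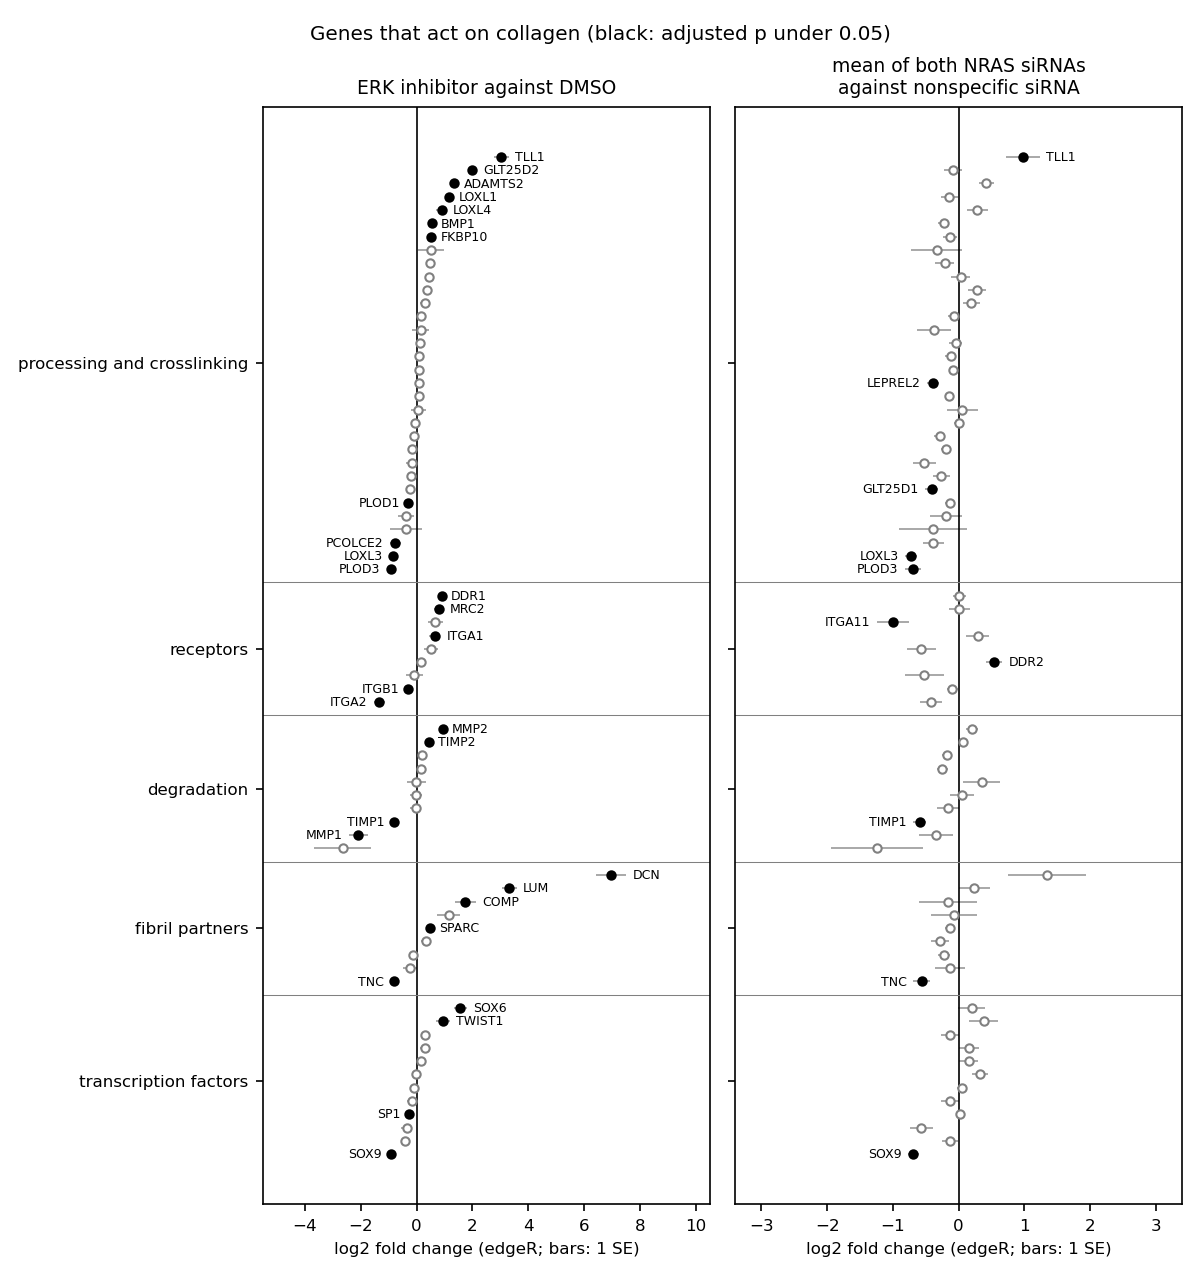
Log2 fold change with 1 SE of the tested genes of 5 lists, ordered within each list by the inhibitor response, for the ERK inhibitor (left) and the mean of both NRAS siRNAs (right). Black points have an adjusted p under 0.05; DCN, LUM and TLL1 lie furthest right with the inhibitor, where the DCN point rests on 2 counts in DMSO.

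Markers of other cell types were read beside these changes, in lists too short to read against the shares of all genes. Those shares were 13.2% higher and 14.8% lower with the inhibitor and 2.97% higher and 4.99% lower with the mean of both siRNAs. Of 3 tested fibroblast markers THY1 rose by 0.32 (SE 0.10) and PDGFRA fell, at -0.96 (SE 0.29), with the inhibitor, and FAP was at -0.01 (SE 0.33). The 6 fibroblast genes summed to 256 to 297 CPM in DMSO and 234 to 246 CPM with the inhibitor, and DPT, PI16 and CD34 had at most 5 counts. Of 3 tested endothelial markers 1 rose and 2 fell, and the 5 genes summed to 140 to 167 CPM in DMSO and 107 to 115 CPM with the inhibitor. Endothelial PECAM1 had at most 4 counts in the libraries, CDH5 at most 10, KDR at most 15 and VWF at most 23, and TEK, the marker that carried that list's sum, changed by -0.47 (SE 0.14). VWF had 7 and 2 counts in DMSO and 20 and 23 with the inhibitor, and KDR 10 and 13 and then 0 and 2. With at most 10 counts outside the inhibitor group, VWF passed the count filter through that group alone. CD68 of the blood list changed by -0.94 (SE 0.27), from 93 and 126 counts in DMSO to 50 and 79. EPCAM, the 1 tested gene of the epithelial list, had 39 to 77 counts and was not called in either arm. In the siRNA arm 1 tested marker was called, ALPL at 0.54 (SE 0.12). The part of such cells in the collagen values was not tested.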

How the data were processed

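10 RD libraries were made with a stranded mRNA kit, per the labels' protocols. The authors deposited raw counts (whole reads assigned to each gene), made with bcl2fastq, TopHat2, SAMtools and HTSeq on hg19, per the submitters' processing notes; for versions, annotation and strand setting, nothing was given in the sources used here. Reads of antisense partners may be included. Lines without a gene (no feature, not unique, ambiguous) held 38.3 to 39.4% of reads and were left out.

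Counts were analysed with edgeR 4.0.16 in R 4.3.3: TMM scaling, a filter with a minimum count of 10, 14761 genes tested, 1 quasi-likelihood fit over all 10 libraries (5 residual degrees of freedom, common biological coefficient of variation 0.115) and Benjamini-Hochberg adjustment, with a call at adjusted p under 0.05. The nonspecific siRNA libraries are shared by all siRNA comparisons. Replicates correlated at Pearson r of 0.993 to 0.996 across genes. Levels per kilobase used exon lengths of GENCODE v29, another build than that of the files, and promoters came from RefSeq (GRCh38.p14). Alternatives were relative-log and upper-quartile scaling, no filter, DESeq2 1.42.0, a fit of only the groups compared, a replicate block and leaving out each library. Every member is named, called members with values per library. Of the 5 lists, up to 5 called genes per comparison with the largest change are named. P4HA1, P4HB, SERPINH1, LOX, FKBP10, BMP1, the inhibitor counts of LOXL3 and the cell-type markers were named after their values were seen. NRAS, DUSP6 and SPRY4 check the treatments. Members and lists were chosen with earlier results of these data known. Tested on simulated data for the inhibitor comparison (14609 genes), the fit called 82 of 99 genes changed by a log2 fold change of 1, 14 of 100 changed by 0.5 and 4 of 14410 left unchanged. The simulated spread followed the trend over genes, with no spread particular to a gene and no batch. It changed far fewer genes than were called in the data. The rates therefore hold for that setting and are not the error rates of the real comparison. Intervals and count floors cover counting error only, since reads are not independent molecules.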

Additional observations from a re-analysis of the deposited data

Results flagged for a closer look

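For 16 collagen genes the response to NRAS siRNAs differed from that to the ERK inhibitor in a test of the difference itself (edgeR's quasi-likelihood test, Benjamini-Hochberg adjustment). Values are the mean siRNA log2 fold change minus that of the inhibitor. As given above, the arms also differed in harvest time. They differed in how far DUSP6 and SPRY4 fell as well. DUSP6 had 6563 and 5375 counts with the nonspecific siRNA, 2747 and 2770 with siRNA 1 and 3183 and 3037 with siRNA 2. In DMSO it had 6633 and 6984 and with the inhibitor 356 and 272. SPRY4 had 7058 and 6495, 3248 and 3503 and 3367 and 3536 in the siRNA groups. Its counts were 7411 and 7906 in DMSO and 322 and 247 with the inhibitor. Whether these differences bear on the 16 genes was not tested. Among FACIT genes the differences were -2.31 for COL14A1, -2.13 for COL12A1, -2.05 for COL16A1, -1.96 for COL9A3, -1.84 for COL9A1 and -1.71 for COL9A2. Among fibrillar genes they were -1.83 for COL5A1, -1.72 for COL1A1, -1.52 for COL2A1, -1.44 for COL11A2 and -0.97 for COL11A1. COL18A1 differed by -2.06, COL6A2 by -0.79 and COL6A1 by -0.73. COL13A1 at 1.43 and COL8A1 at 1.98 were the 2 positive values, since they fell further with the inhibitor.

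Of these calls 10 were kept under each alternative, and 6 were lost under 1 or more. COL9A1 was lost without inhibitor replicate 1 and COL9A3 without DMSO replicate 2 (edgeR adjusted p = 0.0519). COL11A1 was lost without nonspecific siRNA replicate 1 (0.0685), DMSO replicate 2 (0.0881) or inhibitor replicate 2 (0.0661). COL11A2 was lost without nonspecific siRNA replicate 1, either DMSO library or inhibitor replicate 1 (edgeR adjusted p up to 0.0802). COL6A1 and COL6A2 lost their calls most often, with edgeR adjusted p values of up to 0.158 and 0.189, both without inhibitor replicate 1.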

How the results depend on the processing

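No called collagen value reversed under any of the 16 alternatives. Calls with the ERK inhibitor numbered 21 and ranged from 17 (without DMSO replicate 2) to 22 when each library was left out. For the mean of both siRNAs, 9 calls became 17 without the filter, 14 with DESeq2, 5 with only the groups compared and 17 with a replicate block, and ranged from 1 to 13 when a library was left out. For siRNA 1, 3 calls became 13, 10, 0 and 11 under the same settings and ranged from 0 to 4; for siRNA 2, 6 became 15, 10, 2 and 14 and ranged from 1 to 8. The nonspecific siRNA against DMSO went from 0 to 3 without the filter, 3 with DESeq2 and 4 with the block, and stayed at 0 when any library was left out, as did siRNA 1 against siRNA 2. The 16 differences between responses ranged from 11 to 18 when a library was left out. The cause of these shifts was not tested.

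The labels do not say that a replicate number marks a shared origin, and 2 numbers a group are too few to settle pairing from the data. Same-numbered libraries deviated together within the siRNA arm (r across genes of 0.236 to 0.605) and between DMSO and inhibitor (0.203). Across the arms, r was -0.0094 between nonspecific siRNA and DMSO and positive for the remaining pairs. These ran from 0.118 (siRNA 2 with inhibitor) to 0.475 (siRNA 2 with DMSO). A shared batch of each number was thus not settled. Over all genes the block moved the inhibitor calls from 4128 to 5648 and the siRNA calls from 1174 to 2846. Scaling moved the median of all genes by at most 0.058 on the log2 scale. Depth limits COL1A2, COL4A4 and the 9 untested members.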
